A study of Mus musculus with 15 samples.

Results

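The step from day 2 to day 5 of obstructive kidney injury was examined in RNA bound to tagged ribosomes, by setting the 3 arrays labelled day 5 bound (arrays 10, 11 and 12) against the 3 labelled day 2 bound (arrays 7, 8 and 9). These are 6 of the 15 one-colour Affymetrix arrays of the study, chosen by their titles and not by any measured value. All mice carried Col1a1-eGFPL10a, a transgene in which collagen 1α1 promoter and enhancer sequence drives ribosomal protein L10a fused to green fluorescent protein. They were of C57/129sv strain and both sexes, with ages labelled as postnatal day 14 to 300. The kidneys of day 2 and day 5 had unilateral ureteral obstruction (UUO), a surgical block of urine flow; those of day 0 had sham surgery. In translating ribosome affinity purification (TRAP) the tagged ribosomes are pulled from a tissue lysate, and the RNA they hold is the bound fraction. The labels name the cells as kidney pericytes, further described as periarterial fibroblasts of the medulla. Because the tag follows collagen promoter activity, the bound fraction covers whichever cells drive that promoter on each day. Unbound RNA was used for day 0 and day 5, and none of day 2 was analysed here. The labels do not say whether an array stands for 1 mouse or for pooled mice, and p-values measure the spread between these arrays only.

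After ureteral obstruction, interstitial fibroblasts and pericytes proliferate and become myofibroblasts, contractile cells that deposit a collagen-rich matrix. An early matrix rich in fibronectin and matricellular proteins is later joined by crosslinked fibrillar collagens, by elastic fibres built of elastin on a scaffold of fibrillin microfibrils, and by enzymes that trim and remodel both. Transforming growth factor beta (TGF-beta) and Wnt ligands are well-known drivers of this conversion, and injured tubules add cytokines and acute phase proteins.

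Levels below are log2 intensities after quantile normalization over all arrays, and the values of a gene are given in the order of arrays 7, 8 and 9 for day 2 and of arrays 10, 11 and 12 for day 5. A difference is day 5 minus day 2 on that log2 scale, with its standard error (SE) from a limma fit over all 15 arrays, and a gene passed when its p, adjusted by the Benjamini-Hochberg method over 16864 genes, was under 0.05. "Rose" and "fell" are used of genes that passed. A level at or below the highest of 27 negative control probe sets of an array, which lay between 4.01 and 5.09 on the 6 arrays, is treated as background, and a fold against such a level is given as a lower bound.

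The 6 arrays were not alike in quality. Median intensities ran from 16.4 to 107.8 before normalization. Arrays 9 and 12 were bright, with spiked hybridization controls at 12300 to 12900 against 4730 to 5810 on the other 4 arrays, and had the lowest Y-linked signal (1.93 to 3.05 against 8.18 to 9.21); each day holds 1 of them. On array 11 the 5' to 3' ratio of Gapdh signal was 0.0269 against 0.178 to 0.505 on the other 5. Array 8 of day 2 lay close to day 5. Across genes it correlated at 0.927 to 0.958 with the day 5 arrays and at 0.922 to 0.929 with arrays 7 and 9, whereas arrays 7 and 9 correlated at 0.9 to 0.924 with day 5. Results are therefore given with and without array 8, and its position was not used to regroup it.

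Genes of the labelled cell type are described first, which does not by itself verify the label. Col1a1, the collagen gene whose promoter drives the tag, read 12.87, 12.79 and 12.65 on day 2 and 12.92, 13.07 and 12.95 on day 5, against 11.54 to 11.70 on day 0. Pdgfrb, a receptor of pericytes and fibroblasts, read 11.53, 12.27 and 11.66 and then 12.28, 12.17 and 12.17, with a difference of 0.39 ± 0.32 that did not pass. The summed linear level of 28 fibroblast and pericyte genes was 38200 to 59500 on day 2 and 58900 to 66200 on day 5. In the unbound fraction of day 5 it was 34400 to 36500. Defining genes of other kidney cells were also on the arrays. The summed linear level of 25 proximal tubule markers was 13800 to 49900 on day 2 and 9580 to 19600 on day 5, and that of 8 podocyte markers was 11800 to 20700 and then 5710 to 14100. For 22 macrophage and monocyte markers it was 9400 to 29000 and then 12800 to 34100. Of these, 5 of the 25, 0 of the 8 and 1 of the 22 were at background on both days. In bulk RNA, fewer cells of a type and less RNA per cell cannot be told apart.

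Between day 2 and day 5, ribosome-bound RNA of minor fibrillar collagens (Col11a1 and Col24a1), elastin, fibrillin 2, a prolyl hydroxylase subunit (P4ha3) and the proteases Fap and Mmp2 rose. The major collagens Col1a1, Col1a2 and Col3a1 and smooth muscle actin did not pass, with 95% intervals within 2-fold in this fit. The fit used the brightest probe set of each gene. In a setting other than leaving 1 array out, the actin difference reached 1.12, above 2-fold. With 1 array left out the actin difference was at most 0.34. Fibrinogen beta (Fgb) and serum amyloid A2 (Saa2) fell. In all, 99 of 16864 genes passed (0.587%), of which 86 rose (0.51% of genes) and 13 fell (0.0771%). The 86 that rose had a median difference of 2.75 and a range of 1.09 to 5.44. The 13 that fell had a median of -2.07 and a range of -1.10 to -4.76. In all 99 the 3 values of day 5 lay entirely on one side of the 3 of day 2. Groups that do not overlap were found in 9.49% of all genes in the higher direction and 5.18% in the lower. An unadjusted p under 0.05 was found in 9.75% and 6.46%, and the median difference over all genes was 0.09. Of the 86 genes that rose, 34 had a day 2 mean at background, and 8 of those were at background on day 5 too, where no fold is given. Of the other 78, 40 were at least 4-fold and 16 at least 8-fold higher once day 2 means at background were raised to it.

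**Figure D1:**
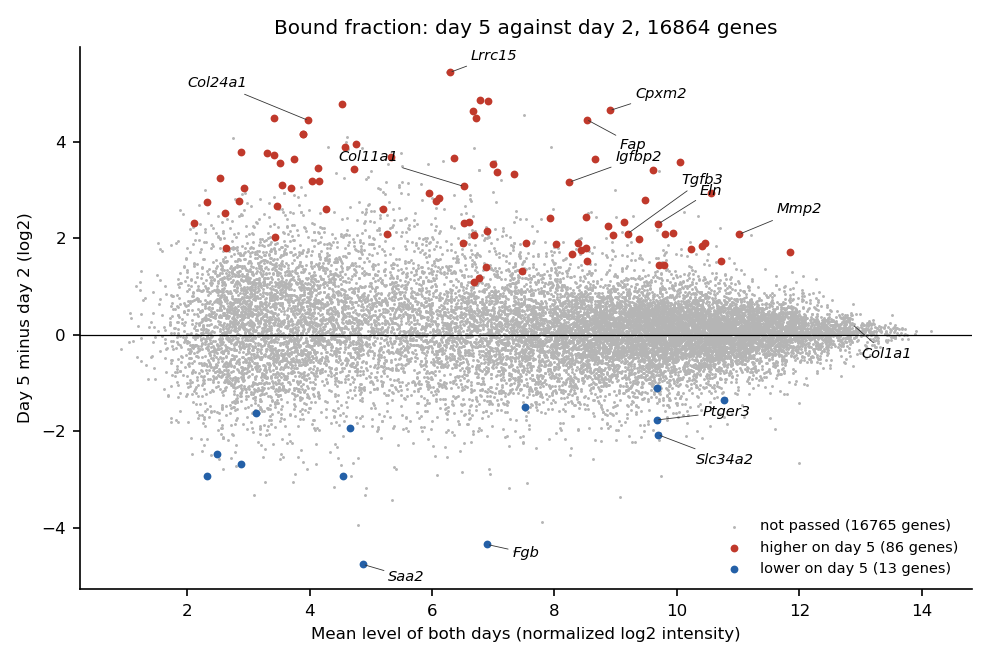
Mean level of both days (x axis, normalized log2 intensity) against day 5 minus day 2 (y axis, log2) for 16864 genes, 1 point per gene. The 86 genes that rose (red) spread over the whole range of levels and reach 5.44, the 13 that fell (blue) reach -4.76, and Col1a1 lies near 0.

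The count depended on single arrays, and most of all on array 8. Array 8 was the highest of the day 2 arrays for 60 of the 86 genes that rose, against 33.9% of all genes. Without it, 780 genes were higher (4.63%) and 516 lower (3.06%), and these held all 99. Array 8 was singled out in these data for lying close to day 5, so leaving it out favours larger differences. List counts without array 8 stand against these shares, and such counts are not given for the other arrays. Without array 7 the counts were 52 and 6, without array 9 76 and 8, without array 10 29 and 8, without array 11 53 and 7, and without array 12 38 and 15. Of the 99 genes, 22 passed in all 6 of these fits. The 21 that rose in all 6 were Col24a1, Shc3, Cpxm2, Cpz, Dach2, Kcnmb4, Fxyd6, Igfbp2, Galnt5, Nkd2, Serpinf1, Icam5, Plk5, Wnt2, Mmp2, Tgfb3, Pde1b, Cpxm1, Ramp1, P4ha3 and Dnm1. The 1 that fell in all 6 was A430088P11Rik, a clone name whose level was at background on both days. With limma fitted to only the 6 arrays, so that the spread came from 4 residual degrees of freedom, no gene passed, and 1375 had an unadjusted p under 0.05. Each of the 21 genes lost its call in 2 to 5 of 14 settings other than leaving 1 array out, this fit among them. Over those settings the difference of Icam5 was 1.58 at the lowest, against 3.77, and that of Igfbp2 was 2.96, against 3.16.

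**Figure D2:**
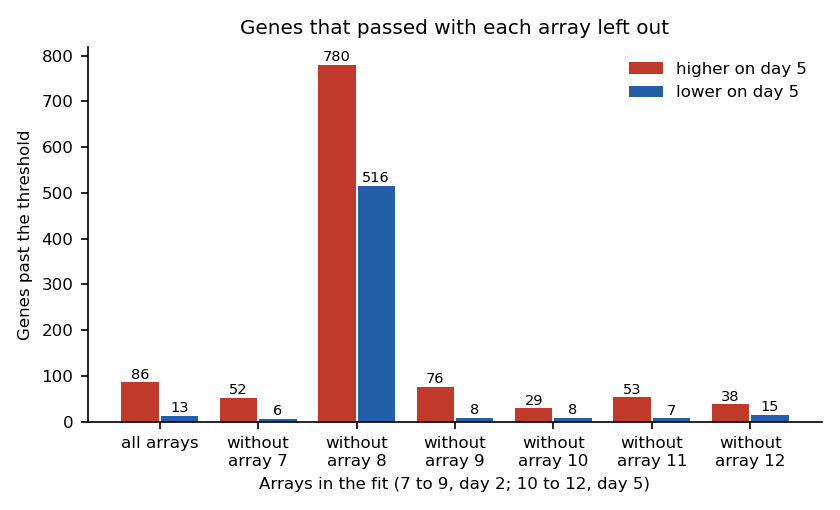
Genes past the threshold (y axis, count) that were higher (red) or lower (blue) on day 5, with all arrays and with each of the 6 arrays left out (x axis). The counts are 86 and 13 with all arrays, 780 and 516 without array 8, and at most 76 and 15 without any other array.

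Lrrc15, a leucine-rich repeat membrane protein found on matrix-forming myofibroblasts, had the largest rise. It read 1.78, 3.81 and 5.13 on day 2 and 9.13, 9.65 and 8.26 on day 5, with 1.5 to 3.73 on day 0. All 3 day 5 arrays stood above day 2, whose mean was at background, so that day 5 was at least 19.3-fold higher (difference 5.44 ± 0.91, adjusted p = 0.019). Fap, the serine protease fibroblast activation protein, read 6.07, 6.71 and 6.11 and then 10.62, 10.77 and 10.88. The days are far apart with little spread within each, a 22-fold rise (4.46 ± 0.69, adjusted p = 0.016). The calls of these genes were not equally firm. Lrrc15 did not pass without array 7, 10 or 11 (differences of 4.54 to 5.38, adjusted p of 0.0616 to 0.077), nor Fap without array 7, 10 or 12 (4.35 to 4.53, adjusted p of 0.0527 to 0.0576).

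Cpxm2, Cpz and Cpxm1 belong to a family of secreted carboxypeptidase-like proteins, and these 3 rose. The other members were not counted, so no share of the family is given. Cpxm2 read 5.22, 7.71 and 6.82 on day 2 and 11.42, 11.05 and 11.22 on day 5, a 25.1-fold rise (4.65 ± 0.50, adjusted p = 0.0026). Day 0, at 6.90 to 7.32, lay with day 2. Cpz, whose product carries a Wnt-binding domain, read 4.68, 6.23 and 5.22 and then 8.91, 9.07 and 8.26 (3.37 ± 0.36, adjusted p = 0.0026). Cpxm1 read 7.60, 9.22 and 7.44 and then 10.94, 10.63 and 11.05 (2.79 ± 0.39, adjusted p = 0.01). In these 3 genes array 8 was the highest of day 2, and without it the differences were 5.21, 3.80 and 3.36. All 3 passed with each array left out; Cpz and Cpxm1 were singled out after their values were seen.

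Promoter sequence is shown for 4 of the genes that passed, chosen to set the largest rise, a collagen and a Wnt ligand beside the fibrinogen chain that fell. Each line gives the 250 bases before the RefSeq start of the gene, 5′ to 3′ on the strand of the gene in build GRCm38.p6. Capitals mark a match to TGANTCA, the element bound by AP-1 factors, or to CCAAT, on either strand (ATTGG where the reverse strand holds it). Each of the 4 windows shown holds 1 match, but the windows of Col24a1, Wnt4, Saa2, Fga and Fgg hold neither motif.
Lrrc15, chr16:30283255-30283504, minus strand, TGANTCA from 53 to 47 bases before the start: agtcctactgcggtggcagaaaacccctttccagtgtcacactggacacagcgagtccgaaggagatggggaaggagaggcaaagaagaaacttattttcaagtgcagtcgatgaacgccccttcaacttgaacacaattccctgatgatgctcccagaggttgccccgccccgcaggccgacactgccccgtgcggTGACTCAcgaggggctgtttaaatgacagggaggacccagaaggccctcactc
Col11a1, chr3:114030290-114030539, plus strand, CCAAT on the reverse strand from 79 to 75 bases before the start: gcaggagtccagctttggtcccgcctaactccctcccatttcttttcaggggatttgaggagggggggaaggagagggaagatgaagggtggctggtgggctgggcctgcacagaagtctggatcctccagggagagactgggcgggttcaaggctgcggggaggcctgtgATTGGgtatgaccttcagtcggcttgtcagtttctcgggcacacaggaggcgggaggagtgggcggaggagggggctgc
Wnt2, chr6:18030446-18030695, minus strand, CCAAT on the reverse strand from 74 to 70 bases before the start: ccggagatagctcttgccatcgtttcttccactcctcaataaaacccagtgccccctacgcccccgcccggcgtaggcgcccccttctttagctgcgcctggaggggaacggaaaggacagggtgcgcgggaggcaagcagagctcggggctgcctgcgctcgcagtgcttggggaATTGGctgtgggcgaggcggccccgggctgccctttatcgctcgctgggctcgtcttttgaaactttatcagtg
Fgb, chr3:83049864-83050113, minus strand, TGANTCA from 173 to 167 bases before the start: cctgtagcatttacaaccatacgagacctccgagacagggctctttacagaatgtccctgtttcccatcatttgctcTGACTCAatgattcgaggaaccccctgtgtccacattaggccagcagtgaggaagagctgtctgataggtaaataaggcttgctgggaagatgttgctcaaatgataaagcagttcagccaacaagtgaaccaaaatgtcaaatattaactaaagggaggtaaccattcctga
Of the genes that rose, 65 had 85 such windows. TGANTCA was in 6 of them (7.06%) against 6.75% of all 32851 windows, CCAAT in 32 (37.6%) against 33.8%, and TTTGAA (or TTCAAA on the reverse strand), a motif of cell cycle gene promoters, in 14 (16.5%) against 16%. These shares lie near those of all windows. For 10 genes that fell there were 13 windows, with TGANTCA and TTTGAA in 1 each and CCAAT in 0.

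Among the fibrillar collagens, which form the load-bearing fibres, 2 of 11 tested genes rose and 9 did not pass; the median difference was 0.49 (0.26 without array 7, 0.76 without array 12), against 0.09 over all genes. The 2 were minor fibre collagens. Col11a1, the type XI chain that sets fibril diameter, read 4.84, 5.30 and 4.80 on day 2 and 7.95, 8.64 and 7.58 on day 5. The days are clearly separated and the difference of 3.07 ± 0.48 is 8.42-fold (adjusted p = 0.016). Col24a1, a fibrillar collagen of developing bone and cornea, read 1.44, 1.28 and 2.55 and then 5.47, 7.32 and 5.82. Day 2 was at background, and day 5 was at least 3.38-fold higher (4.44 ± 0.47, adjusted p = 0.0026). Col24a1 passed with each array left out, whereas Col11a1 did not pass without array 7, 10 or 11 (2.78 to 3.13, adjusted p of 0.0545 to 0.0578).

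The major collagens did not pass. Col1a2 read 13.15, 13.36 and 13.34 on day 2 and 13.48, 13.37 and 13.21 on day 5, and Col3a1 read 13.29, 13.54 and 13.53 and then 13.57, 13.40 and 13.55. The 2 days overlap in both genes. The differences were 0.07 with a 95% interval of -0.31 to 0.46 for Col1a2, 0.06 with an interval of -0.36 to 0.47 for Col3a1 and 0.21 with an interval of -0.21 to 0.63 for Col1a1, so a 2-fold change of each lies outside its interval. Col5a2, which joins type I collagen in mixed fibrils, had a difference of 0.49 ± 0.30 and also did not pass.

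Of 19 tested network, beaded and FACIT collagens, which tie fibres to each other and to basement membranes, 0 passed in either direction with limma, and 10 were higher and 1 lower at an unadjusted p under 0.05. Their median was 0.77, and in 9 of the 19 the day 5 values lay above those of day 2, against 9.49% of all genes. Col16a1 read 8.46, 10.51 and 9.44 and then 11.34, 11.25 and 10.84 (1.68 ± 0.43, adjusted p = 0.11). Col12a1, which decorates collagen fibrils, read 9.47, 9.11 and 8.00 and then 10.15, 10.24 and 10.97 (1.60 ± 0.44, adjusted p = 0.13). Both sets of values are separate, with wide spread on day 2. Col4a3, a chain of the glomerular basement membrane, went the other way, from 10.91, 10.28 and 10.62 to 9.32, 8.69 and 10.26 (-1.18 ± 0.34, adjusted p = 0.14). Without array 8, 5 of the 19 were higher, against 4.63% of all genes, and the median was 0.79.

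**Figure D3:**
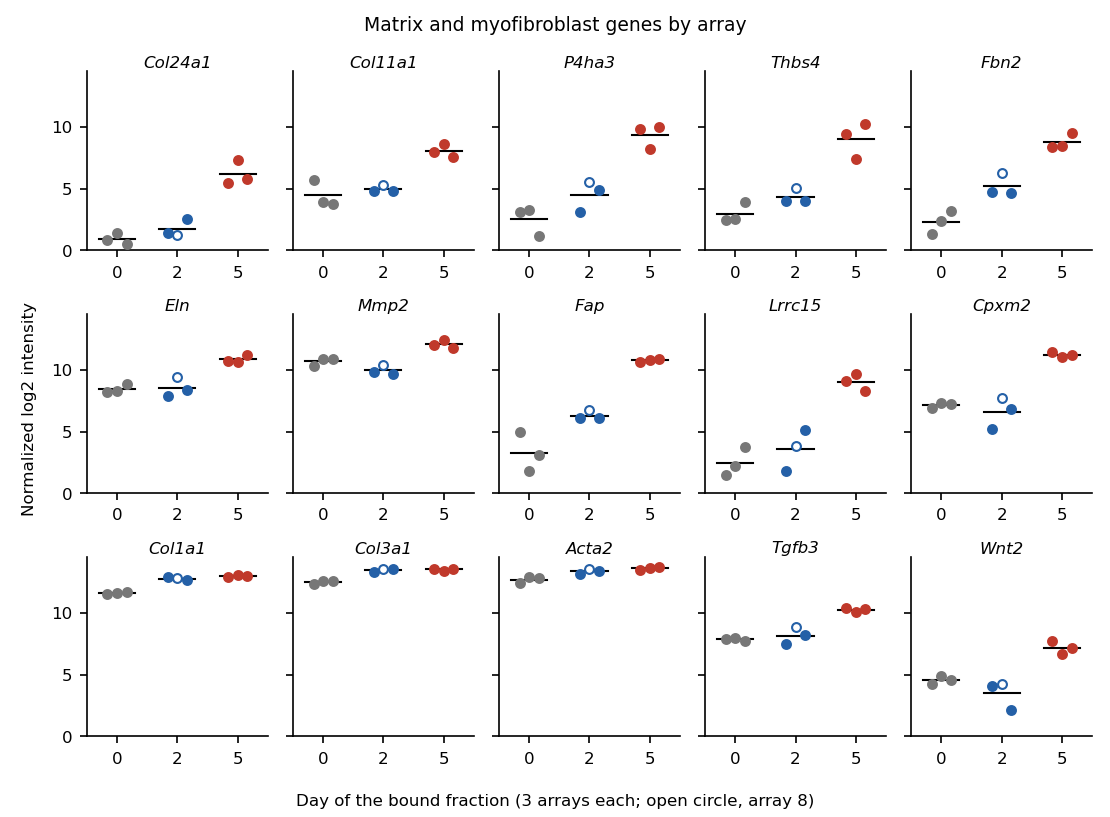
Normalized log2 intensity (y axis) of 15 genes in the bound fraction on day 0, 2 and 5 (x axis), 1 point per array with the mean as a line; array 8 is the open circle. Genes that rose, such as Col24a1, Fap and Cpxm2, have 3 day 5 points above all points of day 2, while Col1a1, Col3a1 and Acta2 lie between 12.65 and 13.70 on both days.

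In the list of collagen modification and processing genes 1 of 23 rose, and the median was 0.28. P4ha3, a catalytic subunit of the prolyl 4-hydroxylase that stabilizes the collagen triple helix, read 3.08, 5.54 and 4.86 on day 2 and 9.86, 8.19 and 9.97 on day 5. The difference of 4.85 ± 0.70 (adjusted p = 0.01) is at least 23.2-fold, since 1 day 2 array was below its background level, with a day 0 range of 1.18 to 3.28. P4ha3 passed with each array left out. Bmp1, the protease that cleaves the C-terminal propeptide of procollagen, read 8.42, 9.47 and 9.15 and then 10.23, 9.79 and 10.42 without passing (1.13 ± 0.28, adjusted p = 0.1). Its difference was as low as 0.09 in another setting, though at least 0.84 with 1 array left out. Lox, the crosslinking enzyme lysyl oxidase, read 10.97, 11.82 and 11.23 and then 12.12, 11.63 and 12.21, where the days overlap (0.65 ± 0.24, adjusted p = 0.22). Without array 8, 5 of the 23 genes were higher, against 4.63% of all genes, and the median was 0.59.

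The elastic fibre genes had the largest median of the 39 lists, 1.54, with 2 of 14 risen and 12 not passed. In 6 of the 14 day 5 lay above day 2, against 9.49% of all genes. Eln, elastin itself, read 7.90, 9.41 and 8.34 on day 2 and 10.74, 10.63 and 11.17 on day 5. It was 4.91-fold higher on day 5 (2.30 ± 0.37, adjusted p = 0.016), and its day 0 values of 8.20 to 8.83 lay among those of day 2. Fbn2, the fibrillin of developing microfibrils, read 4.76, 6.30 and 4.63 and then 8.38, 8.43 and 9.52, an 11.7-fold rise (3.55 ± 0.55, adjusted p = 0.016). Array 8 was the highest of day 2 in both genes. Eln did not pass without array 7, 9, 10 or 12 (1.97 to 2.35, adjusted p of 0.0503 to 0.0643), and Fbn2 did not without array 7 or 12 (3.18 to 3.31, adjusted p of 0.0544 to 0.0554).

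Other microfibril and elastin-associated genes had differences of similar size without passing. Fbln2, fibulin 2, read 7.27, 8.13 and 6.47 and then 9.99, 9.32 and 10.09 (2.51 ± 0.60, adjusted p = 0.095). Mfap5, a microfibril glycoprotein, read 7.37, 8.02 and 7.99 and then 10.65, 9.77 and 9.65 (2.23 ± 0.67, adjusted p = 0.15). Mfap4 read 8.82, 9.68 and 10.28 and then 12.08, 11.49 and 11.84 (2.21 ± 0.67, adjusted p = 0.16). In each the days do not overlap. Without array 8, 6 of the 14 were higher, against 4.63% of all genes, and the list median was 1.85. Without the bright arrays 9 and 12 the median was 1.12.

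Of 22 matricellular and provisional matrix genes 1 rose, and the median was 0.47. Thbs4, a thrombospondin of injured connective tissue, read 4.01, 5.05 and 4.01 on day 2 and 9.39, 7.37 and 10.22 on day 5. Day 2 was at background and day 5 was at least 23.4-fold higher (4.63 ± 0.73, adjusted p = 0.016). It did not pass without array 7, 10 or 12 (4.02 to 4.46, adjusted p of 0.0527 to 0.0643). Dmp1, an acidic phosphoprotein of bone matrix, read 7.27, 7.73 and 7.49 and then 9.75, 12.05 and 9.66, and the day 5 spread left it short of the threshold (2.99 ± 0.68, adjusted p = 0.082). Thbs2 read 9.22, 10.91 and 9.05 and then 11.61, 11.27 and 11.82 (1.85 ± 0.49, adjusted p = 0.12). Postn, periostin, read 9.13, 10.88 and 10.84 and then 11.67, 11.95 and 11.32 (1.36 ± 0.58, adjusted p = 0.27). Fn1, fibronectin of the early matrix, overlapped between days, at 11.68, 11.40 and 10.99 and then 11.22, 12.02 and 12.09, and its interval of -0.44 to 1.28 includes a 2-fold rise. Without array 8, 3 of the 22 were higher, against 4.63% of all genes, and the median was 0.73.

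Small leucine-rich proteoglycans, which bind collagen fibrils, had a median of 0.67 over 10 genes (0.24 without array 7), with 0 passed in limma and 3 higher at an unadjusted p under 0.05. Laminins, nidogens and perlecan of basement membranes had a median of 0.11 over 13 genes (-0.42 without array 9 and 0.36 without array 7), with 0 passed and 1 higher at that unadjusted p. Without array 8 the counts of higher genes were 2 of 10 and 1 of 13, against 4.63% of all genes.

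Of 24 tested proteases and inhibitors that remodel the matrix, 1 rose and 23 did not pass, and the median was 0.61. In 8 of the 24 day 5 lay above day 2 and in 3 below, against 9.49% and 5.18% of all genes. Mmp2, gelatinase A, read 9.86, 10.39 and 9.69 on day 2 and 11.99, 12.43 and 11.76 on day 5, after 10.34 to 10.89 on day 0. The 4.23-fold rise (2.08 ± 0.28, adjusted p = 0.0077) held with each array left out. Mmp2 is named as the only list member that passed. Mmp10, stromelysin 2, read 5.39, 6.83 and 2.98 and then 8.13, 8.70 and 8.61, where the spread of day 2 is wide (3.41 ± 0.88, adjusted p = 0.11). Plau, the urokinase plasminogen activator, read 8.39, 8.37 and 9.81 and then 6.14, 4.05 and 6.83 (-3.18 ± 0.71, adjusted p = 0.073). Timp1, a metalloproteinase inhibitor, stood at 12.77, 13.07 and 12.99 and then 12.89, 12.43 and 12.69, against 5.61 to 7.62 on day 0; its difference of -0.27 ± 0.48 did not pass and turned positive with arrays centred on their medians. Ctsk, cathepsin K, a collagen-degrading protease outside the lists, rose 3.94-fold from 7.43, 9.20 and 8.56 to 10.68, 10.13 and 10.32 (1.98 ± 0.35, adjusted p = 0.026), and did not pass without array 9, 10, 11 or 12 (1.83 to 2.10, adjusted p of 0.0503 to 0.0992). Without array 8, 5 of the 24 list members were higher and 2 lower, against 4.63% and 3.06% of all genes.

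Genes of fibroblast and pericyte identity had a median of 0.53 over 28 tested, with Fap the 1 that rose. In 9 of the 28 day 5 lay above day 2, against 9.49% of all genes. Twist1, a mesenchymal transcription factor, read 6.98, 9.76 and 9.05 and then 10.53, 11.07 and 10.71 (2.18 ± 0.58, adjusted p = 0.12). Gli2, a transcription factor of Hedgehog signalling, read 5.37, 7.4 and 7.22 and then 9.29, 9.68 and 8.85 (2.61 ± 0.60, adjusted p = 0.082). Thy1, a surface glycoprotein of fibroblasts, read 10.86, 12.02 and 11.48 and then 12.77, 12.72 and 12.48, with 6.51 to 7.13 on day 0 (1.21 ± 0.30, adjusted p = 0.1). In all 3 the days are separate and array 7 is the lowest of day 2. Pdgfra, a receptor of resident fibroblasts, read 11.36, 12.33 and 11.37 and then 12.19, 12.26 and 12.05, and array 8 exceeds every day 5 value (0.48 ± 0.27, adjusted p = 0.41). Without array 8, 8 of the 28 were higher and 1 lower, against 4.63% and 3.06% of all genes, and the median was 0.83. Without array 7 the median was 0.28.

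The smooth muscle contractile list, which marks myofibroblasts, had 0 of 19 passed in limma, 2 higher at an unadjusted p under 0.05 and a median of 0.24. Acta2, smooth muscle alpha actin, read 13.15, 13.56 and 13.38 and then 13.46, 13.65 and 13.70, and the days overlap (0.24, interval of -0.22 to 0.70). Leaving 1 array out gave a difference of at most 0.34, while another setting gave 1.12, without passing. Tagln, transgelin, overlapped too, at 13.11, 13.38 and 12.75 and then 13.48, 13.18 and 13.15. Cnn1, calponin, read 5.23, 6.27 and 6.5 and then 9.71, 10.27 and 9.72, which are far apart on these arrays, but day 0 ran from 1.27 to 5.97 and the SE was large (3.90 ± 1.17, adjusted p = 0.15). Actg2, smooth muscle gamma actin, read 8.28, 9.22 and 9.05 and then 11.57, 11.19 and 11.41 (2.54 ± 0.69, adjusted p = 0.12). Actc1, Jph2 and Flnc, which are known from striated muscle and lie outside the list, did pass, and were chosen after their values were seen. Striated muscle genes as a group were not counted, so no share of them is given. Actc1, cardiac alpha actin, read 8.22, 6.26 and 6.03 and then 11.09, 9.52 and 10.82, a 12.5-fold rise (3.64 ± 0.61, adjusted p = 0.02). Jph2, which couples membrane and reticulum in muscle, rose 5.08-fold from 7.00, 8.78 and 8.10 to 10.23, 10.42 and 10.27 (2.35 ± 0.39, adjusted p = 0.018). Flnc, the filamin of striated muscle, rose 3.75-fold (1.91 ± 0.29, adjusted p = 0.015). Actc1 did not pass without array 9, 10 or 12 (3.23 to 3.47, adjusted p of 0.065 to 0.0858), Jph2 without array 10, 11 or 12 (2.29 to 2.38, adjusted p of 0.0574 to 0.0648), and Flnc without array 10 (1.85, adjusted p = 0.06).

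Of 20 TGF-beta signalling genes 1 rose, and the median was 0.01. Tgfb3, a TGF-beta ligand, read 7.44, 8.83 and 8.18 on day 2 and 10.36, 10.03 and 10.35 on day 5, with 7.73 to 7.95 on day 0. The 4.27-fold rise (2.09 ± 0.29, adjusted p = 0.0094) held with each array left out. The ligand Tgfb2 read 8.87, 9.86 and 9.57 and then 10.66, 10.13 and 10.54 (1.01 ± 0.30, adjusted p = 0.15). Inhba, the activin A subunit, read 8.36, 10.06 and 8.46 and then 10.43, 10.99 and 10.43 (1.66 ± 0.44, adjusted p = 0.12). Fst, follistatin, the secreted inhibitor of activin, lay in the opposite direction, at 9.10, 7.93 and 10.28 and then 5.19, 5.70 and 7.15 (-3.08 ± 0.64, adjusted p = 0.056), and day 0 was 7.72 to 9.21. Without array 8 the list had 3 higher and 1 lower, against 4.63% and 3.06% of all genes, and a median of 0.20. Without array 11 the median was 0.23.

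Of 26 Wnt and Hedgehog pathway genes 2 rose, both Wnt ligands, and the median was 0.57. Wnt2 read 4.10, 4.24 and 2.11 on day 2 and 7.71, 6.67 and 7.15 on day 5. Day 2 was at background, which makes day 5 at least 6.5-fold higher (3.69 ± 0.50, adjusted p = 0.0077), and the call held with each array left out. Wnt4 read 8.06, 8.63 and 7.10 and then 10.40, 9.49 and 10.07, a 4.17-fold rise (2.06 ± 0.36, adjusted p = 0.026) that did not pass without array 7, 9, 10 or 12 (1.65 to 2.12, adjusted p of 0.0503 to 0.101). Lef1, a transcription factor of canonical Wnt signalling, read 7.69, 8.75 and 8.38 and then 10.26, 9.21 and 10.29 (1.65 ± 0.36, adjusted p = 0.068). The secreted antagonist Dkk2 read 10.15, 11.18 and 9.79 and then 12.10, 11.25 and 11.81 (1.35 ± 0.35, adjusted p = 0.11). Nkd2, an inhibitor that binds Dishevelled and lies outside the list, rose 10.6-fold from 7.05, 8.33 and 8.34 to 11.52, 10.82 and 11.60 (3.41 ± 0.44, adjusted p = 0.0069), and passed with each array left out. Without array 8, 7 of the 26 were higher, against 4.63% of all genes.

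Insulin-like growth factor binding proteins, which hold these growth factors in the matrix, split by member. Of 11 genes of the family 2 rose, 9 did not pass, and the median was 0.06 (0.32 without array 9). Igfbp2 read 7.04, 6.68 and 6.27 on day 2 and 10.10, 9.96 and 9.42 on day 5, while day 0 was 9.02 to 9.74. Its 8.95-fold rise (3.16 ± 0.37, adjusted p = 0.0037) thus follows a day 2 level below that of day 0, and it held with each array left out. Igfbp3 had the same course, from 10.95 to 11.13 on day 0 through 10.29, 9.35 and 8.88 to 11.51, 11.73 and 10.96 (1.90 ± 0.35, adjusted p = 0.033), and did not pass without array 9, 10 or 11 (1.58 to 1.84, adjusted p of 0.0872 to 0.115). Igfbp6 read 5.93, 8.18 and 8.14 and then 9.67, 9.11 and 9.41 (1.98 ± 0.51, adjusted p = 0.11). Igfbp5 read 13.07, 13.31 and 13.21 and then 12.50, 12.44 and 12.69 (-0.65 ± 0.21, adjusted p = 0.17). Of the 86 genes that rose, 49 (57%) had a day 2 mean below that of day 0, against 49.9% of all genes, and 78 (90.7%) a day 5 mean above it, against 55.2%. Passing on a low day 2 and a high day 5 favours both counts, so they are a description.

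The PDGF, FGF and EGF-family list had 0 of 24 passed in limma, against 1 higher and 9 lower at an unadjusted p under 0.05. The median was -0.32. Day 5 values lay below day 2 in 5 genes and above in 1, where 5.18% and 9.49% of all genes did so. The EGF-family ligand Btc, betacellulin, read 7.43, 6.27 and 7.99 and then 5.57, 4.11 and 5.98 (-2.01 ± 0.71, adjusted p = 0.2). Nrg1, neuregulin 1, read 7.11, 5.51 and 6.37 and then 3.91, 4.34 and 5.04 (-1.90 ± 0.81, adjusted p = 0.28), with day 5 at background. Fgf1 overlapped on array 8 alone, at 12.00, 10.22 and 12.36 and then 10.33, 9.86 and 9.47 (-1.64 ± 0.45, adjusted p = 0.13; -2.29 without array 8). Fgf18 was the 1 with day 5 above day 2, from 4.59, 5.27 and 0.95, at background, to 6.21, 6.90 and 5.78 (2.70 ± 0.88, adjusted p = 0.17). Without array 8, 1 of the 24 was higher and 2 lower, against 4.63% and 3.06% of all genes.

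Among the 12 largest rises were the receptor genes Ramp1 and Rxfp1. The receptors Ptger2 and Pgr, given beside them, had rises below the median of 2.75 of all genes that rose. Ramp1, the accessory subunit of the CGRP receptor, read 4.39, 6.24 and 2.81 on day 2 and 8.82, 8.78 and 9.29 on day 5. It rose at least 16.1-fold, with 1 day 2 array below its background level (4.49 ± 0.64, adjusted p = 0.01). Rxfp1, the relaxin receptor, read 1.19, 1.36 and 2.90, at background, and then 6.21, 4.69 and 7.03, at least 2.89-fold higher (4.16 ± 0.69, adjusted p = 0.019). Ptger2, a receptor for prostaglandin E2, rose 2.64-fold from 5.80, 6.49 and 6.25 to 7.64, 7.29 and 7.82 (1.40 ± 0.23, adjusted p = 0.017). Pgr, the progesterone receptor, read 8.89, 9.91 and 9.71 and then 11.19, 11.26 and 11.55 after 6.85 to 7.58 on day 0 (1.83 ± 0.28, adjusted p = 0.015). Both were singled out after their values were seen. Ramp1 passed with each array left out; Rxfp1 did not without array 7, 10 or 12 (3.63 to 4.05, adjusted p of 0.0674 to 0.0784), Ptger2 without array 10 or 12 (1.28 to 1.37, adjusted p of 0.0674 to 0.07) and Pgr without array 12 (1.72, adjusted p = 0.0527).

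The other genes among the 12 largest rises were Stac, Slco5a1, Spock3 and Shc3. Stac, an adaptor of voltage-gated calcium channels, read 4.52, 6.59 and 1.94 and then 9.15, 9.57 and 8.93, at least 17.2-fold above a day 2 mean at background (4.87 ± 0.90, adjusted p = 0.033). Shc3, an adaptor of receptor tyrosine kinases known from neurons, read 1.28, 1.89 and 2.25 and then 5.77, 5.86 and 6.26, at least 2.87-fold higher (4.16 ± 0.44, adjusted p = 0.0026). The transporter Slco5a1 was at least 5.55-fold and the proteoglycan Spock3 at least 2.34-fold higher, again from day 2 means at background. Shc3 passed with each array left out, Slco5a1 failed without array 10, Spock3 without array 7 or 12 and Stac without array 7, 10, 11 or 12, at adjusted p of 0.0527 to 0.112 in these fits.

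Further genes that rose, chosen after their values were seen, included Serpinf1, the secreted antiangiogenic serpin PEDF, from 9.38, 8.95 and 8.95 to 12.20, 12.16 and 11.74 (2.94 ± 0.38, adjusted p = 0.0069). Ccdc80, a secreted matrix-associated protein, read 10.42, 11.67 and 10.89 and then 12.80, 12.57 and 12.77 (1.72 ± 0.28, adjusted p = 0.017). Fxyd6, a regulator of the sodium pump, read 7.57, 9.54 and 7.65 and then 12.00, 11.85 and 11.66 (3.58 ± 0.42, adjusted p = 0.0036). Apoe, the lipoprotein component apolipoprotein E, read 7.54, 7.76 and 6.58 and then 9.92, 10.13 and 9.15 (2.44 ± 0.39, adjusted p = 0.016), and macrophages also express it: its unbound mean on day 5 was 11.53, above the bound mean of 9.74, and the part of macrophage RNA in its rise was not tested. Serpinf1 and Fxyd6 passed with each array left out, whereas Ccdc80 did not without array 9, 10 or 12 (1.67 to 1.69, adjusted p of 0.0503 to 0.0691) and Apoe did not without array 10 or 11 (2.24 to 2.35, adjusted p of 0.064 to 0.0683).

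Among the 13 genes that fell, acute phase genes had the largest differences. Of 25 genes of the interleukin-6 family and acute phase 2 fell, 0 rose and 23 did not pass. In 8 of the 25 day 5 lay below day 2 and in 2 above, against 5.18% and 9.49% of all genes. The median was -0.43, but -0.13 with background levels raised to the floor and -0.22 without array 9. Fgb, the fibrinogen beta chain, read 10.99, 7.27 and 8.97 on day 2 and 5.58, 3.80 and 4.81 on day 5, a fall of at least 15.7-fold, with 1 day 5 array below its background level (-4.35 ± 0.84, adjusted p = 0.041), to near its day 0 range of 3.62 to 4.94. The fibrinogen chains Fga and Fgg lie beside it on chromosome 3 and had differences in the same direction without passing. Fga read 12.13, 10.00 and 11.49 and then 8.88, 9.06 and 6.88 (-2.94 ± 0.70, adjusted p = 0.094). Fgg read 12.81, 9.46 and 9.98 and then 8.19, 7.35 and 6.59 (-3.37 ± 0.81, adjusted p = 0.094). In all 3 chains array 8 was the lowest of day 2 and array 7 the highest.

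Saa2, a serum amyloid A protein, read 8.65, 6.43 and 6.69 and then 1.73, 2.04 and 3.71. Day 5 was at background and at least 6.87-fold lower (-4.76 ± 0.86, adjusted p = 0.031). Saa1 read 10.74, 8.41 and 9.57 and then 6.28, 4.53 and 4.49 (-4.47 ± 1.02, adjusted p = 0.081); the 2 genes are near-identical neighbours on chromosome 7, and their probe sets may share signal. Lcn2, lipocalin 2, read 13.20, 12.11 and 12.70 and then 11.94, 12.10 and 11.69 without passing (-0.76 ± 0.28, adjusted p = 0.22), and stayed above its 7.41 to 8.10 of day 0. The cytokines of the list did not separate. Il6 read 7.26, 9.43 and 9.87 and then 7.53, 8.34 and 7.54 (-1.05 ± 0.69, adjusted p = 0.47), and Il11 read 10.16, 12.02 and 11.13 and then 9.73, 10.97 and 9.09 (-1.17 ± 0.74, adjusted p = 0.46). Fgb did not pass without array 7, 9, 10, 11 or 12 (-4.77 to -3.39, adjusted p of 0.07 to 0.139). Saa2 did not without array 7, 9, 10 or 11 (-5.04 to -4.07, adjusted p of 0.0538 to 0.111). Without array 8, 6 of the 25 genes in the list were lower, against 3.06% of all genes.

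**Figure D4:**
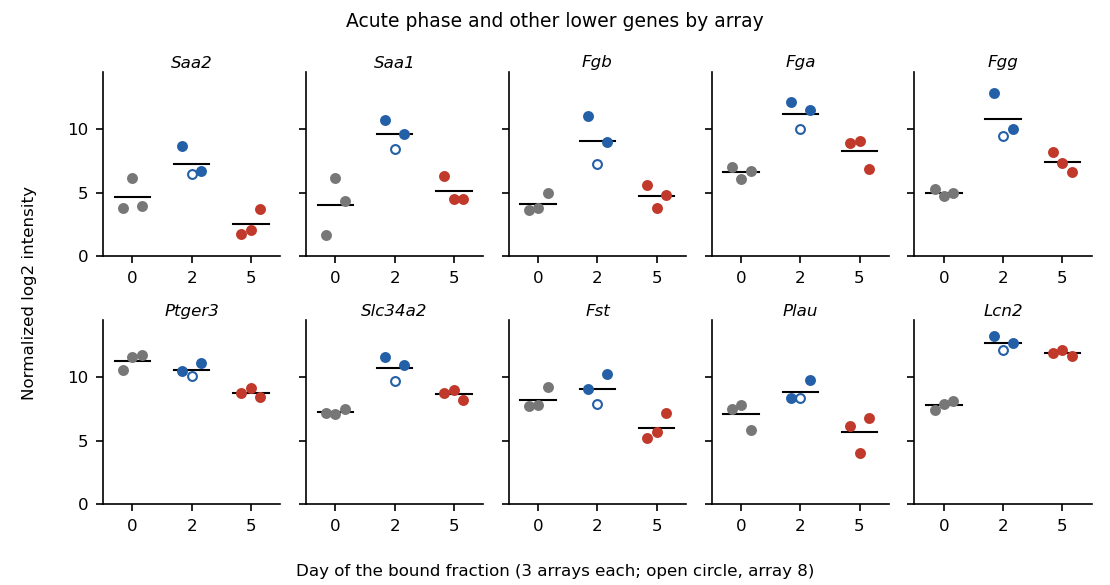
Normalized log2 intensity (y axis) of 10 genes in the bound fraction on day 0, 2 and 5 (x axis), 1 point per array with the mean as a line; array 8 is the open circle. The fibrinogen and serum amyloid genes are highest on day 2, while Lcn2 stays between 11.69 and 13.20 on both days; Saa2, Fgb, Ptger3 and Slc34a2 passed and the other 6 did not.

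Ptger3, Slc34a2, Bpnt1 and Tmprss13 also fell. Ptger3, a prostaglandin E2 receptor of the thick ascending limb and collecting duct and a member of the loop and distal tubule markers, read 10.50, 10.07 and 11.09 and then 8.77, 9.11 and 8.47, a 3.4-fold fall (-1.77 ± 0.34, adjusted p = 0.04). Slc34a2, a sodium phosphate cotransporter, read 11.55, 9.71 and 10.93 and then 8.75, 9.00 and 8.22, a 4.21-fold fall (-2.07 ± 0.39, adjusted p = 0.039) after 7.10 to 7.52 on day 0. Bpnt1, a nucleotide phosphatase, read 11.57, 11.00 and 11.79 and then 9.88, 9.83 and 10.58 (-1.36 ± 0.26, adjusted p = 0.039). Tmprss13, a membrane serine protease, fell from 5.03, 5.76 and 6.07 to 3.50, 3.77 and 3.81, at background (-1.93 ± 0.31, adjusted p = 0.016). Each of these 4 had a higher mean in the unbound than in the bound fraction of day 5, at 11.23 against 8.78 for Ptger3, 11.07 against 8.66 for Slc34a2, 11.77 against 10.10 for Bpnt1 and 6.35 against 3.69 for Tmprss13. Ptger3 and Slc34a2 did not pass without any 1 of arrays 7, 9, 10, 11 and 12, at adjusted p of 0.064 to 0.113, Bpnt1 without array 7, 9, 10 or 11, at 0.102 to 0.134, and Tmprss13 without array 10, at 0.0678.

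The remaining falls were smaller or near background. Wdr76, a nuclear WD-repeat protein, read 7.97, 8.28 and 8.54 and then 7.01, 6.91 and 6.39 (-1.5 ± 0.26, adjusted p = 0.025), although another probe set of the gene had a difference of the opposite sign. Of the 99 genes that passed, 35 had other tested probe sets, and 4 of these, Wdr76 among them, had one of opposite sign. Sft2d2, a vesicle transport protein, read 10.52, 10.29 and 9.88 and then 9.19, 9.26 and 8.93 (-1.10 ± 0.22, adjusted p = 0.044). Lrtm2, a leucine-rich repeat membrane protein, was at background on day 5 and at least 2.90-fold lower (-2.94 ± 0.48, adjusted p = 0.017). Serpina9, Tas2r108, A430088P11Rik and 9130410C08Rik passed with both days at background, and no fold is given for them. Wdr76 and Sft2d2 each failed without 4 of the arrays, at adjusted p of 0.0578 to 0.117, and Lrtm2 without array 9, at 0.053.

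Markers of the tubule are given beside these falls. None of 25 proximal tubule markers passed in limma, with 1 higher and 3 lower at an unadjusted p under 0.05 and a median of -0.33. Of 15 loop and distal tubule markers 1 fell (median -0.65). Of 19 collecting duct markers 0 passed (median -0.88). In 5 of the 19 day 5 lay below day 2 and in 1 above, against 5.18% and 9.49% of all genes. Summed levels of the loop and distal markers were 18100 to 34500 on day 2 and 15800 to 21600 on day 5, and those of the collecting duct 8990 to 19200 and then 6630 to 12600. Array 8 held the lowest day 2 sum of all 3 tubule lists, 13800, 18100 and 8990. The water channel Aqp4 of the collecting duct read 10.57, 9.14 and 9.33 and then 7.87, 8.48 and 7.73 (-1.66 ± 0.39, adjusted p = 0.088). Havcr1, KIM-1 of injured proximal tubule, read 13.21, 11.39 and 12.57 and then 11.49, 11.16 and 9.32 (-1.73 ± 0.56, adjusted p = 0.17). The part of tubular RNA in the falls of the acute phase genes and of Ptger3, Slc34a2, Bpnt1 and Tmprss13 was not tested. The proximal median was 0.066 without array 7 and -0.77 without array 9, so its sign rests on array 7, and the loop and distal median became -0.36, -0.39 or -0.99 when array 12, 7 or 8 was left out. Without array 8, 6 proximal, 3 loop and distal and 3 collecting duct markers were lower, against 3.06% of all genes.

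Podocyte markers had a median of -0.84 over 8 genes and 0 passed; Nphs1, nephrin, read 8.50, 7.93 and 8.80 and then 8.10, 3.52 and 6.68 (-2.31 ± 1.04, adjusted p = 0.3), and Podxl, podocalyxin, read 12.78, 12.05 and 12.41 and then 12.09, 10.62 and 10.84 (-1.23 ± 0.34, adjusted p = 0.13). Their summed level in the unbound fraction of day 5, 4510 to 4570, was below all 6 bound arrays. Endothelial markers had a median of -0.61 over 23 genes with 0 passed (-0.19 when array 7 was left out, -0.29 for array 12 and -0.998 for array 11), and sums of 12300 to 21800 and then 13100 to 15200. Macrophage and monocyte markers had a median of 0.57 over 22 genes with 0 passed, and leaving out array 11, 8 or 9 gave 0.20, 0.25 or 0.29 while leaving out array 12 or 7 gave 0.90 or 1.01. Clec7a, the beta-glucan receptor, read 5.53, 3.02 and 3.90 and then 6.83, 7.96 and 6.42 (2.92 ± 1.02, adjusted p = 0.19), and Ms4a7 read 6.76, 4.73 and 5.30 and then 7.20, 8.42 and 7.25 (2.03 ± 0.54, adjusted p = 0.12). Lymphocyte markers (median 0.55 over 13 genes) and neutrophil markers (0.31 over 13) had 0 passed, and 6 and 5 of them were at background on both days. With background levels raised to the floor these medians were 0.12 and 0.03. The neutrophil sum ran the other way from its median, at 5870 to 11900 on day 2 and 4700 to 7890 on day 5, and the lymphocyte sum was 224 to 430 and then 362 to 489. The neutrophil median was 0.11 without array 11 and 0.66 without array 12, and the lymphocyte median 0.27 without array 7 and 0.12 without array 10.

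Transient response genes and chemokines gave no gene that passed. In the list of immediate early and AP-1 genes 0 of 26 passed in limma (9 higher and 1 lower at an unadjusted p under 0.05). Of these 26, 22 had a positive difference, and the median was 0.43. In 9 of the 26 day 5 lay above day 2 and in 2 below, against 9.49% and 5.18% of all genes. Egr1, a zinc finger factor induced by growth factors, read 11.73, 12.12 and 11.80 and then 12.68, 12.80 and 12.81 (0.88 ± 0.21, adjusted p = 0.094). Egr3 read 4.99, 7.03 and 6.5 and then 8.33, 8.37 and 8.81 (2.33 ± 0.58, adjusted p = 0.1), and the nuclear receptor Nr4a1 read 6.79, 7.70 and 7.30 and then 8.50, 8.97 and 8.80 (1.49 ± 0.43, adjusted p = 0.14). In these 3 genes day 2 overlapped day 0 and day 5 lay above both. Without array 8, 6 of the 26 were higher, against 4.63% of all genes, and the median was 0.69. Without array 7 the median was 0.18. Of 35 chemokines and inflammatory cytokines 0 passed (3 higher and 1 lower at an unadjusted p under 0.05), with a median of 0.09 (0.37 without array 8, -0.04 without array 11). Cxcl9, an interferon-induced chemokine, read 5.20, 6.73 and 4.39 and then 8.55, 7.70 and 7.42 (2.45 ± 0.70, adjusted p = 0.14), and Ccl8 read 5.09, 5.47 and 4.93 and then 7.60, 9.55 and 7.04 (2.90 ± 1.03, adjusted p = 0.2). Ccl2, the monocyte attractant, overlapped at 7.98, 9.59 and 7.66 and then 7.51, 6.31 and 7.66.

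Lists for growth, protein production and energy metabolism held no gene that passed. None of 39 mitosis genes passed (limma; 1 at an unadjusted p under 0.05; median 0.31, and 0.19 without array 11), and their summed level was 27700 to 36100 on day 2 and 32200 to 46200 on day 5, both above the 2270 to 2490 of day 0. The 36 genes of DNA replication had a median of -0.12, the 17 cell cycle inhibitors and p53 targets 0.01, the 34 genes of the secretory pathway -0.09, the 34 of oxidative phosphorylation -0.01 and the 22 of hypoxia and glycolysis -0.07, with 0 passed in each. With arrays centred on their medians the median over all genes became 0.295, and the last 3 list medians were 0.23, 0.37 and 0.32. Cytosolic ribosomal proteins, the partners of the tagged L10a, had a median of 0.09 with 0 of 33 passed, and 29 of the 33 had a 95% interval within 2-fold of no change, against 31.5% of all genes. Fatty acid oxidation (median -0.35 over 21) and cholesterol synthesis (-0.15 over 18) also had 0 passed, as did complement (0.34 over 17, -0.04 without array 8) and the interferon response (-0.04 over 21).

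**Figure D5:**
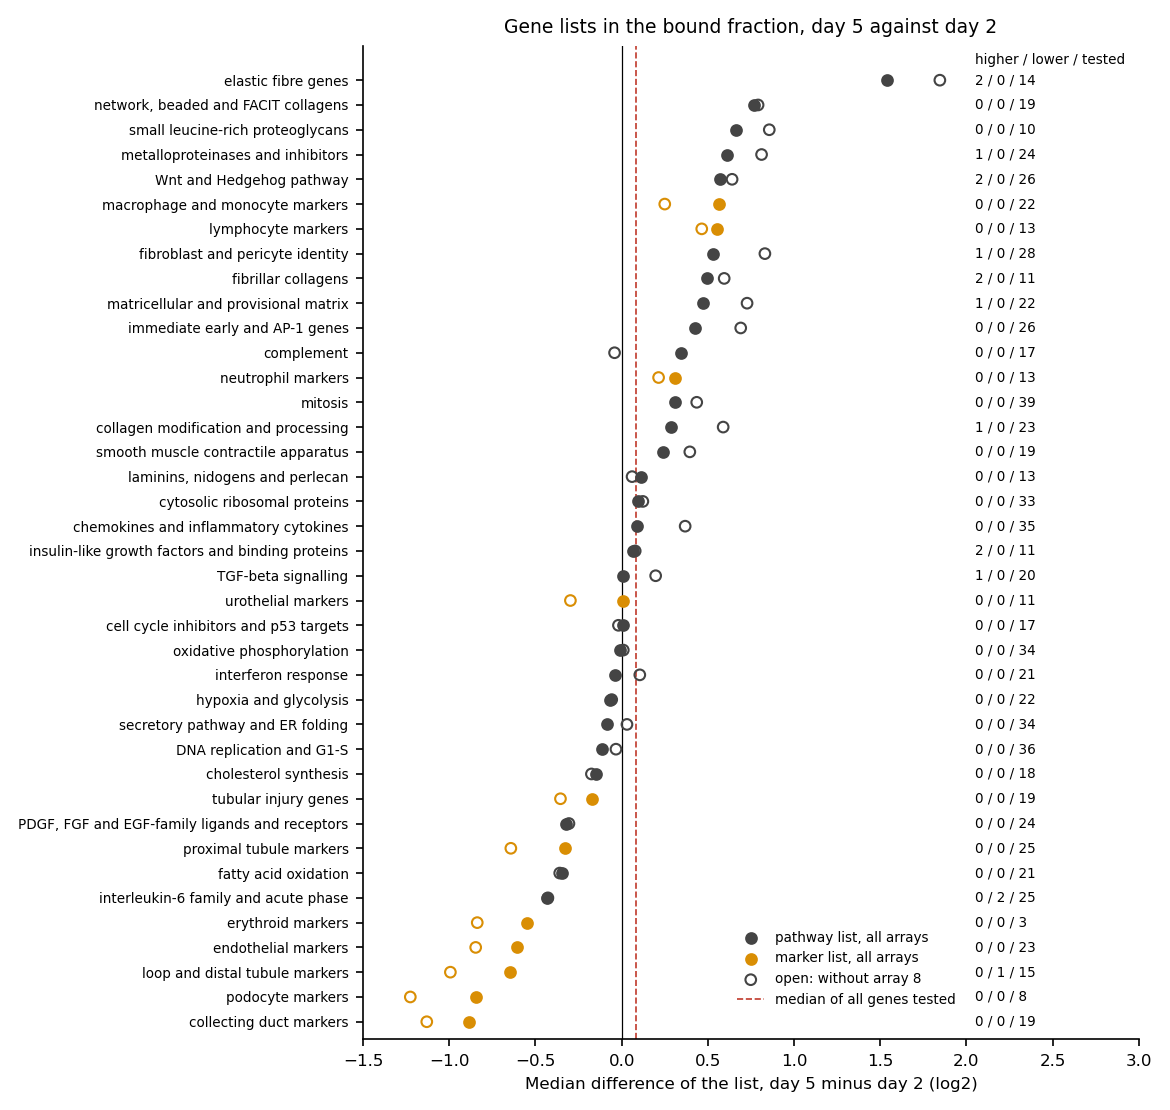
Median difference of each of 39 gene lists (x axis, day 5 minus day 2, log2) with all arrays (filled) and without array 8 (open), and at the right the number of genes that were higher, lower and tested with all arrays. Elastic fibre genes have the highest median, 1.54, collecting duct markers the lowest, -0.88, and the dashed line is the median of all genes, 0.09.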

How the data were processed

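Polysomal RNA of mouse kidney was amplified in 1 round with a NuGEN kit, biotin-labelled and hybridized to 15 Affymetrix arrays per the labels. The authors deposited linear intensities, 1 value per probe set and array; how probes were summarized, background-corrected and scaled is not given in the sources used here. Groups, 5 of 3 arrays each, follow the labels.

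From the deposited intensities, log2(value + 1) was taken and quantile normalization applied over the 15 arrays. Controls (64) were set aside; of the other 45037 probe sets, 34945 named a single gene, 932 more than that and 9160 none. The brightest probe set stood for each of 18193 genes. Testing covered the 16864 genes above the 25th percentile on 3 or more arrays. For folds, arrays of a group whose mean lay at or below the mean floor (the brightest of 27 negative controls on each array) were raised to their floor, as were single arrays below it in P4ha3, Ramp1 and Fgb. Differences were tested two-sided with limma 3.58.1 in R 4.3.3 (residual degrees of freedom 10, prior 2.32), after the code was tested on simulated data. Figures used matplotlib 3.10.9.

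The comparison, the 28 pathway and 11 marker lists, the 24 landmark genes and the naming rule were chosen with earlier results of these data known. The rule takes the 12 largest differences in each direction that passed without overlap, the 4 largest of each list and the landmark genes, and a choice of these is printed. Lists have counts and medians, with no set test. Promoters came from RefSeq (GRCm38.p6), matched by symbol; Fap, Fbn2, Eln, Mmp2 and Tgfb3 were not matched. The number of arrays limits the precision. Alternatives in filter, scaling, probe set rule, arrays, prior, weights, pseudocount, threshold and covariates stand in the closing section.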

Additional observations from a re-analysis of the deposited data

How the results depend on the processing

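None of the 99 calls changed direction under the alternatives tried, but their number did. Against 86 higher and 13 lower, there were 0 and 0 with only the 6 arrays fitted, 1 and 0 with these 6 normalized alone, 6 and 0 with the 9 bound arrays, 20 and 2 with array weights, 190 and 50 with a pseudocount of 16, 16 and 1 at an adjusted p under 0.01, and 18 and 3 without the bright arrays 9 and 12. There were 89 and 27 with a filter at the 50th percentile, 86 and 6 with centred arrays, 111 and 23 with the mean of a gene's probe sets and 122 and 74 with a trended robust prior. With a covariate there were 72 and 11 (hybridization controls), 76 and 12 (Gapdh ratio) and 76 and 9 (Y-linked genes), with 76, 72 and 77 of the 99 calls kept. With 1 array left out, 29 to 780 were higher and 6 to 516 lower, both the highest without array 8, and groups did not overlap in 12.3 to 19.2% and 7.6 to 13.3% of genes. That share was 23.3% and 13.7% without the bright arrays, and 3.3% for lower genes with centred arrays. Fewer samples in an arm make separation easier; for the other changes the cause was not tested.

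Centring raised the median of all genes to 0.295, and list medians to 0.86 for fibrillar collagens, 1.11 for network collagens, 0.64 for collagen modification, 0.65 for contractile genes, 0.23 for TGF-beta, 0.89 for fibroblast identity, 0.38 for insulin-like growth factors, 0.62 for immediate early genes, 0.75 for complement, 0.32 for hypoxia, 0.34 for cell cycle inhibitors, 0.58 for ribosomal proteins, 0.23 for the secretory pathway and 0.37 for oxidative phosphorylation. Without the bright arrays the medians were 0.66 for fibrillar collagens, 1.12 for elastic fibre genes and 0.63 for immediate early genes. The fibrillar collagen median was 0.67 over mean probe sets and 0.33 with a pseudocount of 16, that of the acute phase -0.15 with the 50th percentile filter, -0.17 with the 6 arrays normalized alone and -0.16 with a pseudocount of 16, that of proximal tubule markers -0.046 with array weights, and that of lymphocyte markers 0.12 with the 6 arrays normalized alone. With 1 array left out medians ran from 0.26 to 0.76 for fibrillar collagens, 0.56 to 0.81 for network collagens, -0.10 to 0.23 for TGF-beta, 0.18 to 0.69 for immediate early genes, -0.041 to 0.60 for complement, -0.47 to 0.029 for fatty acid oxidation and 0.12 to 0.66 for lymphocyte markers. Those of the interferon response (-0.27 to 0.11), DNA replication (-0.27 to 0.01), hypoxia (-0.13 to 0.02), cell cycle inhibitors (-0.08 to 0.08), the secretory pathway (-0.12 to 0.03), oxidative phosphorylation (-0.06 to 0.03), urothelial markers (-0.30 to 0.30) and tubular injury genes (-0.41 to 0.20) changed sign, so no direction is read from them. Among single genes, Col3a1 was -0.027 without array 7 and Timp1 0.11 with centred arrays. Neither passed in any setting named here. Over all settings the highest differences were 1.12 for Acta2, 0.65 for Col1a1, 0.59 for Col1a2 and 0.55 for Col3a1, without passing.

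No paired analysis was possible because the array numbers of day 2 (7 to 9) and day 5 (10 to 12) are not shared and the labels state no pairing. The fit took all 15 arrays as independent, and whether bound and unbound arrays of a day came from the same lysates was not tested. On day 5 the Y-linked signal was 8.61, 9.21 and 1.93 in bound and 9.30, 9.02 and 1.65 in unbound arrays. With shared lysates the spread would rest on fewer independent samples. Genes near background on both days have no usable fold at this signal.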
